A study of Homo sapiens with 4 samples.

Results

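JUNB, HOOK2 and 8 further genes of the AP-1 family (JUN, JUND, FOS, FOSB, FOSL1, FOSL2, BATF and BATF3) were examined for occupancy by ETS1 and by RUNX1, both transcription factors. These 10 genes, of 19817 protein-coding genes with RefSeq coordinates, were taken with every peak inside the gene or within 50 kb of its bounds. JUNB and its neighbour HOOK2 were chosen by the number of ETS1 peaks around them in these same libraries, so the number of peaks there describes the choice and was not tested. The other 8 were taken because they belong to the AP-1 family.

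The data came from 4 CUT&Tag libraries of 6T-CEM, a human line derived from T-cell acute lymphoblastic leukaemia. In CUT&Tag, an antibody tethers the transposase Tn5 to its target on chromatin, and the DNA around the target is cut and sequenced. There were 2 ETS1 libraries (antibody sc-55581 from Santa Cruz) and 2 RUNX1 libraries (ab272456 from Abcam), numbered 1 and 2. All 4 carry the same line name and cell type in the labels, with no treatment or edited gene given, and peaks were called in each library against IgG, a non-specific antibody. Nothing in the labels says that the libraries of an antibody came from separate cultures, so differences between them may be technical.

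AP-1 is a dimer of a JUN protein (JUN, JUNB or JUND) with a FOS protein (FOS, FOSB, FOSL1 or FOSL2) or with another leucine zipper protein such as BATF or BATF3. Its genes are switched on rapidly by growth factor and antigen receptor signals, and in T cells the dimer binds together with NFAT at cytokine genes. ETS1 and RUNX1 are transcription factors of T-cell development that bind GGAA-cored and TGNGGT-type sequences, and each can help the other to bind DNA. HOOK2, which is no AP-1 gene, encodes a protein that links cargo to microtubules.

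ETS1 gave 6082 and 5625 peaks in its libraries 1 and 2, and RUNX1 gave 25360 and 25001. Read totals are not in the lists. The median number of fragments or reads stacked at a summit, solved from the deposited values, was 54 and 51 for ETS1 and 75 and 71 for RUNX1. Overlapping peaks of both libraries of a factor were merged, and a region was kept where it held a peak of each library, which gave 5055 ETS1 and 22802 RUNX1 regions. T-lineage markers (CD3D, CD3E, CD3G, CD247, CD2, CD7 and LCK) carried ETS1 within 1 kb of a gene end in 4 of 7 and RUNX1 in 7 of 7, against 19.0% and 47.2% of all protein-coding genes. The B-lineage, myeloid and erythroid markers carried ETS1 at an end in 0 of 4, 0 of 4 and 0 of 3 genes, and RUNX1 in 1 of each.

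The promoters below are those at which the sequence and the ETS1 regions are described next: 3 members and the neighbour PRDX2 with an ETS1 region over the promoter, and JUN and BATF without. They are RefSeq sequences of GRCh38.p14 (the assembly of hg38), from 250 bases before to 50 after a start site, read 5′ to 3′ on the gene's strand. Capitals mark CGGAAG (the core of many ETS sites), TGNGGT (RUNX), TGANTCA (the AP-1 site) and TGACGTCA (CRE, the site of CREB and ATF factors), each on either strand. CGGAAG occurs in 19.4% of the 34789 promoters of the table, TGNGGT in 43.2%, TGANTCA in 7.69% and TGACGTCA in 1.84%. Related forms were also searched: CCGGAAG (10.2%) and GGAA (95.4%) overlap CGGAAG, and TGTGGT (13.1%) is a case of TGNGGT. Of the 10 genes, 8 matched the promoter table, with 10 promoters in all, and CGGAAG was found in 3 of those: JUNB, BATF and the HOOK2 promoter printed here. JUNB is at chr19:12791236-12791535 (plus strand), HOOK2 (its start inside the long gene body) at chr19:12778384-12778683 (minus), PRDX2, the next gene beyond JUNB, at chr19:12801751-12802050 (minus), JUND at chr19:18281573-18281872 (minus), JUN at chr1:58783998-58784297 (minus) and BATF at chr14:75522219-75522518 (plus).
JUNB: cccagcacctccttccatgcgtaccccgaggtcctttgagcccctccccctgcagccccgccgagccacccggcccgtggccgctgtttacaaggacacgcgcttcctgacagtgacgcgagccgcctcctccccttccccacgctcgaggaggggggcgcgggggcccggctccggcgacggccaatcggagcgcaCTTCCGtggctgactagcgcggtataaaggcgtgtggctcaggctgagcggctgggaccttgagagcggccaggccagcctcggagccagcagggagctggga
HOOK2: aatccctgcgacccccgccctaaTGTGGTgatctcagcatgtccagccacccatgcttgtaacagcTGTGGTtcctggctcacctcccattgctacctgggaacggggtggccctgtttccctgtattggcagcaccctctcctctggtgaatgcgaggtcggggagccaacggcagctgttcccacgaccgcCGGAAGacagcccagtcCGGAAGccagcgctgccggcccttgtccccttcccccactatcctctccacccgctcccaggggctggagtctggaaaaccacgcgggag
PRDX2: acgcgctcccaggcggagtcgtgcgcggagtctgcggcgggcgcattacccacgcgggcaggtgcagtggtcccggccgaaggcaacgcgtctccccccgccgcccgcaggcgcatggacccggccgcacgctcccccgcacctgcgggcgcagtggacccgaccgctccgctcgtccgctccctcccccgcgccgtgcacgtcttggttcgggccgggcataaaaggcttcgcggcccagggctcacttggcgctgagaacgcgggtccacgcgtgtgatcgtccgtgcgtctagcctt
JUND: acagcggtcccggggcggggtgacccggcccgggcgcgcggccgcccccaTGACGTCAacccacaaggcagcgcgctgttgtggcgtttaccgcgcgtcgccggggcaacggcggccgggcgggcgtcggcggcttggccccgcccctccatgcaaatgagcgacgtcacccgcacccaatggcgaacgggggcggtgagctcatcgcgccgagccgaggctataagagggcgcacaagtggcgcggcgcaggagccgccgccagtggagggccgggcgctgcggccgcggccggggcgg
JUN: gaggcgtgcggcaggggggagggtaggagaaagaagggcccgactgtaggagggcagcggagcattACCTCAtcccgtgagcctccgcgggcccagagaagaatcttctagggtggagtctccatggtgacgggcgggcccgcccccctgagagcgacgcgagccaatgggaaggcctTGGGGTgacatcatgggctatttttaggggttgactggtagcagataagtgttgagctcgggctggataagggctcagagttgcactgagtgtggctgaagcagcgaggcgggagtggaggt
BATF: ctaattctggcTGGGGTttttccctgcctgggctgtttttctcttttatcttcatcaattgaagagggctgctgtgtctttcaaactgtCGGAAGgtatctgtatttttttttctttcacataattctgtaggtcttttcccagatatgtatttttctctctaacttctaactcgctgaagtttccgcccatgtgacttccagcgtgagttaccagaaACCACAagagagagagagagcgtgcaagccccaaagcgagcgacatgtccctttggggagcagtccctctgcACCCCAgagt

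JUNB lies at chr19:12791486-12793315 on the plus strand and HOOK2 at chr19:12763003-12792350 on the minus strand. The genes overlap by 865 bp, because the outermost HOOK2 start site falls inside JUNB, so a peak there cannot be assigned to either gene alone. Their joint window of 130.313 kb held 13 and 14 ETS1 peaks in libraries 1 and 2, and 18 and 18 RUNX1 peaks. The peaks formed 13 ETS1 and 15 RUNX1 regions. All 13 ETS1 regions overlapped a RUNX1 region, as did 98.0% of ETS1 regions in the genome, whereas 9 of the 15 RUNX1 regions overlapped an ETS1 region, against 20.6% in the genome. When an overlap of at least 50% of each region was required, 46.2% of the 13 ETS1 regions still counted. No genome share is given for that requirement, so nothing is read from the drop.

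**Figure D1:**
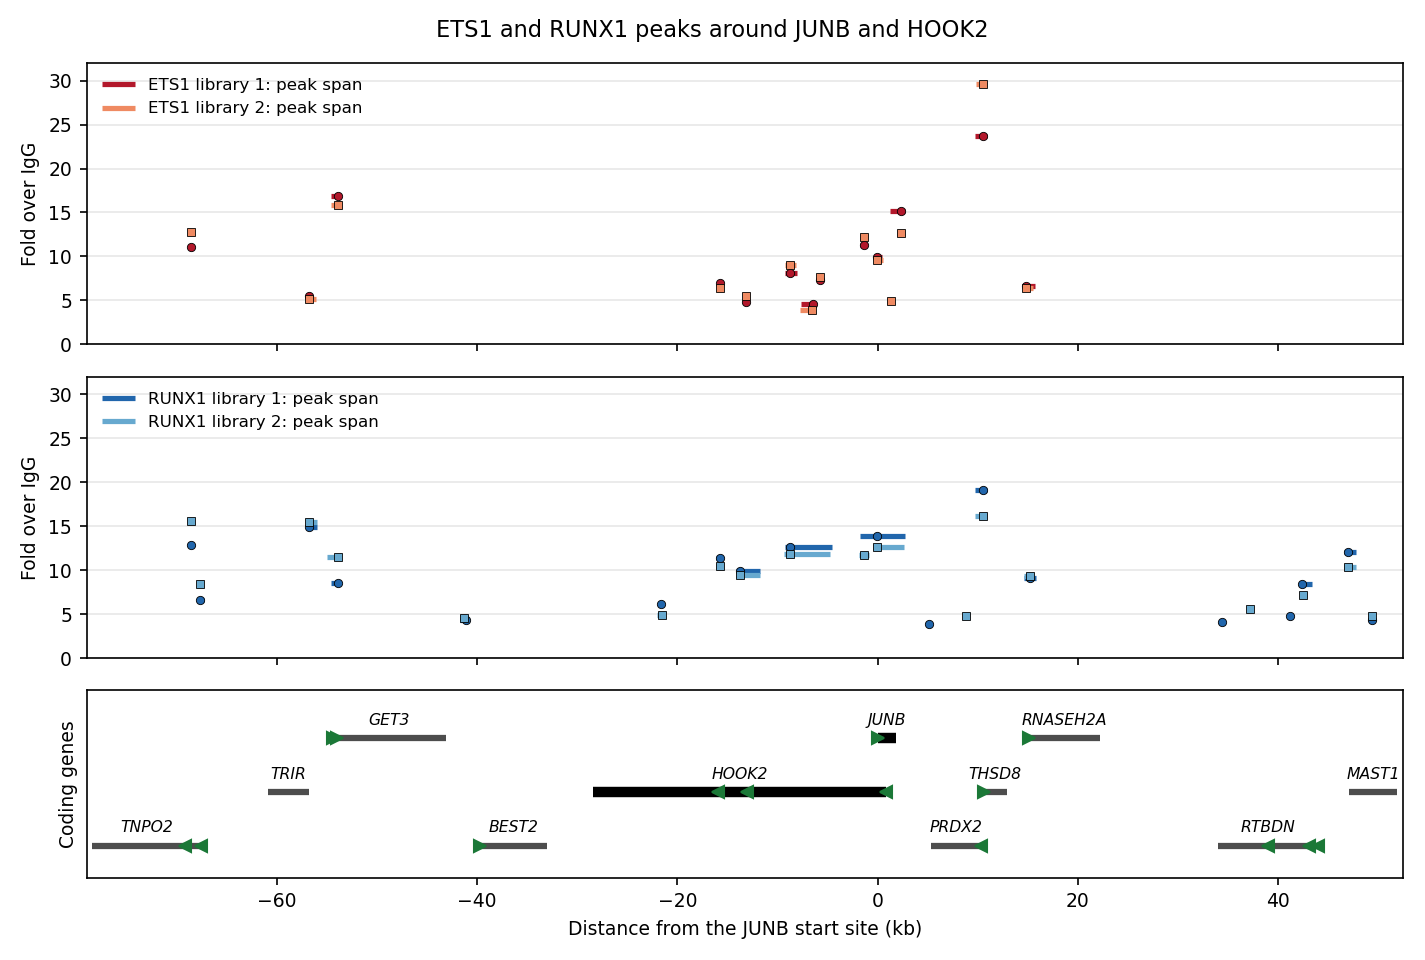
Peaks of each library around JUNB and HOOK2, by distance from the JUNB start site (kb) and fold over IgG. Bars span the peaks, circles and squares are the summits of libraries 1 and 2, and the bottom track shows coding genes with their RefSeq start sites as green arrowheads. ETS1 summits crowd between the HOOK2 start sites and the far side of JUNB, and the highest ETS1 fold, 23.6 and 29.6, lies at the start sites of PRDX2 and THSD8.

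At the JUNB start site, an ETS1 region spanned chr19:12791105-12792027 and had folds of 9.97 and 9.56 in ETS1 libraries 1 and 2. The RUNX1 region over the same site had folds of 13.9 and 12.6. The ETS1 summits lay 24 and 30 bp before the start site and both RUNX1 summits lay 27 bp before it, so the 4 libraries placed their summit within a few base pairs of each other. The JUNB promoter printed above holds a single CGGAAG, read on the minus strand, at chr19:12791433-12791438. Its centre lay 26.5 and 20.5 bp from the ETS1 summits and 23.5 bp from both RUNX1 summits. Neither TGNGGT nor CCGGAAG, the longer ETS form, was found in these 300 bases. CGGAAG was added to the search after the sequences had been seen, so its place near the summits is a description.

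On either side of the JUNB start, ETS1 formed separate regions with higher folds. A region whose summits lay 1379 bp before the start site (chr19:12789670-12790513) had ETS1 folds of 11.3 and 12.2. A region reaching beyond the 3′ end of JUNB (chr19:12792443-12794222), with a mean summit 519.5 bp past that end, had ETS1 folds of 15.1 and 12.6. The stacks were not higher: 70 and 65 in the upstream region and 76 and 59 in the 3′ region, against 79 and 70 at the start. The IgG expectation, which divides the fold, was 5.27 and 4.42 and 4.10 and 3.75, against 7.02 and 6.43 at the start. Its part in the higher folds was not tested. The merged RUNX1 region over all 3 ETS1 regions, chr19:12789611-12794222, was 4612 bp wide, against a median of 869 bp for RUNX1 regions. It was a single peak in RUNX1 library 1 (chr19:12789725-12794222). In library 2 it was a pair of peaks, chr19:12789611-12790654 over the upstream ETS1 region and chr19:12791020-12794158 over the other two.

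Within the body of HOOK2, 5 more ETS1 regions were found, all over RUNX1. At the HOOK2 start site whose promoter is printed above, ETS1 had folds of 4.79 and 5.50 with summits 95 bp inside the transcript, and RUNX1 had folds of 9.84 and 9.46 with summits 661 and 654 bp inside it. That promoter has 2 copies of CCGGAAG, a longer ETS core, and 2 of TGTGGT. The nearest CGGAAG centre lay 132.5 bp from the ETS1 summits, farther than at JUNB. The other internal start site (chr19:12775503-12775802), without CGGAAG, had ETS1 folds of 6.99 and 6.39 and RUNX1 folds of 11.4 and 10.5, with all 4 summits between 166 and 175 bp before the start. The remaining 3 regions lay between the start sites of HOOK2 and JUNB, with ETS1 folds of 8.08 and 9.06, 4.603 and 3.948, and 7.28 and 7.71, and shared a RUNX1 region with folds of 12.7 and 11.8. A RUNX1 region that holds 3 or more ETS1 regions was found 40 times in the genome (0.175% of RUNX1 regions), among them the one in the HOOK2 body, a single peak in each RUNX1 library, and the one over JUNB, which in library 2 was a pair of peaks of which neither held 3.

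These 8 ETS1 regions began within a stretch of 18.825 kb, chr19:12775398-12794222. No other 20 kb stretch in the genome held as many ETS1 region starts, and the median over all 5055 was 1. The length of 20 kb was chosen after the data were seen. With 50 kb the count was 10 and again nowhere matched, whereas with 10 kb the count of 5 was reached from 5 starts. When peaks up to 500 bp apart were merged, 5 regions remained, a number reached from 26 starts, so the rank of this stretch depends on counting neighbouring ETS1 regions separately. RUNX1 formed at most 4 regions in a 20 kb stretch here.

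The strongest ETS1 region of the window lay outside both genes, at the shared promoter of PRDX2, an enzyme that breaks down peroxide, and THSD8. ETS1 folds there were 23.6 and 29.6, and 99.0% of ETS1 regions had a lower fold. RUNX1 folds were 19.1 and 16.2. The PRDX2 promoter printed above contains none of the motifs searched, not even GGAA, a run of 4 letters found on either strand in 95.4% of all 34789 promoters in the table. At GET3, a factor that inserts proteins into the endoplasmic reticulum membrane, ETS1 folds were 16.8 and 15.9 and RUNX1 folds 8.55 and 11.5, with all summits 41 or 42 bp inside the start site at chr19:12737497. These were the pairs in which the ETS1 fold exceeded the RUNX1 fold in both libraries.

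The other ETS1 regions lay at TNPO2, a nuclear import receptor (11.1 and 12.8), at TRIR, a gene of RNA metabolism (5.55 and 5.19), and at RNASEH2A, the catalytic subunit of RNase H2 (6.62 and 6.36). RUNX1 folds at these regions were 12.9 and 15.6 at TNPO2, 14.9 and 15.5 at TRIR, and 9.04 and 9.32 at RNASEH2A. RUNX1 formed 6 regions without ETS1: at the TNPO2 start, before BEST2, in the HOOK2 body, in RTBDN, at MAST1 and inside MAST1. Their folds were between 4.29 and 12.001. Of the 20 ends of coding genes in the window, 9 had ETS1 within 1 kb (45%), against 10.2% of all gene ends, and 11 had RUNX1 (55%), against 26.6%. Neighbouring ends can share a region, and since the window was chosen for its ETS1 peaks, nothing is read from these shares.

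ETS1 regions of the window had a median fold of 8.57, against 5.82 over all ETS1 regions. The fragments stacked at their summits did not differ in that direction, with a median of 53.5 in the window and 56.5 over all. The IgG expectation, which divides the fold, had a median of 5.33 in the window and 8.96 over all. Its part in the higher folds was not tested. For RUNX1, the median fold was 10.001 in the window and 8.196 over all, with median stacks of 73.5 and 80 and median IgG expectations of 6.72 and 9.07.

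Counted by gene, JUNB had 10 ETS1 regions in its gene or within 50 kb and HOOK2 had 13. As many as JUNB were found at 76 genes, JUNB included (0.384%), against 1.06% of the genes of chromosome 19 and 1.74% of genes whose windows hold a like number of gene ends (within 2). As many as HOOK2 were found at 3 genes (0.0151%), the highest count of any gene. These are HOOK2, its neighbour BEST2, which shares most of the window, and ABCA7, elsewhere on chromosome 19 (BEST2 and ABCA7 were named after their counts were seen). The share for JUNB moved between 0.0404% with a 25 kb window and 1.5% when peaks up to 500 bp apart were merged, and was 0.641% without replicate 2. RUNX1 counts were less far from the rest. As many as the 11 of JUNB were found at 5.26% of genes (3.3% without replicate 1 and 3.46% without replicate 2). As many as the 15 of HOOK2 were found at 1.52%. Among genes of chromosome 19 the RUNX1 shares were 13% for JUNB and 2.91% for HOOK2. Among genes with a like number of gene ends they were 19.6% and 7.99%.

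**Figure D2:**
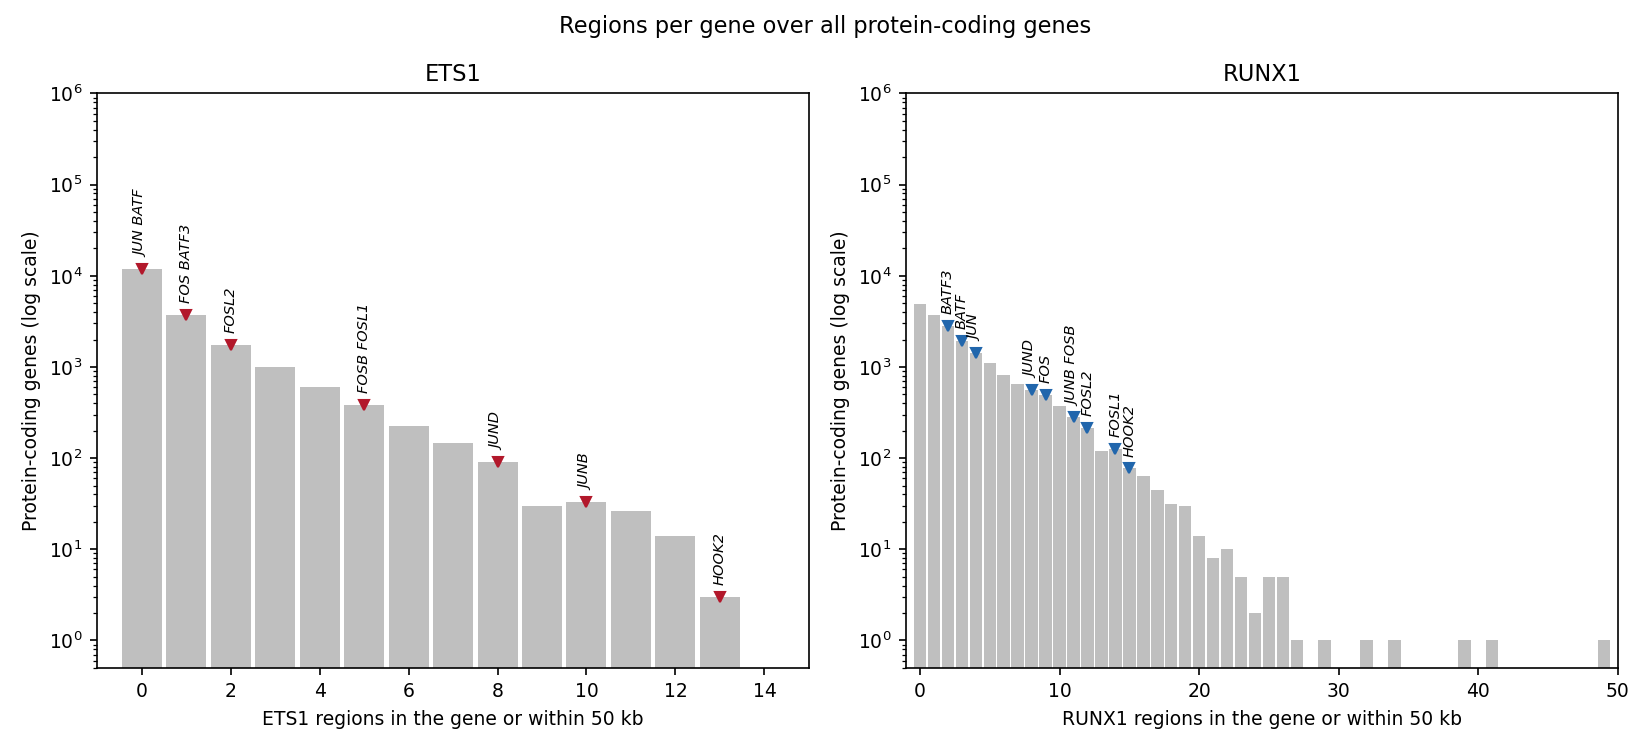
Number of protein-coding genes (log scale) by their number of ETS1 regions (left) and RUNX1 regions (right) in the gene or within 50 kb, with the 10 genes marked. HOOK2 (13) and JUNB (10) stand at the far end of the ETS1 counts, whereas JUN and BATF have 0, and for RUNX1 the 10 genes lie between 2 and 15.

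The limit of 50 kb passed close to regions at JUNB: the GET3 region described above lay 53.7 kb from JUNB, just outside its window but inside that of HOOK2. The farthest ETS1 region inside the JUNB window was 15.5 kb away, at the internal HOOK2 start, with folds of 6.99 and 6.39. At FOSB, an ETS1 region 48.1 kb away was counted (6.15 and 5.30), and a stronger one 60.8 kb away was not (21.8 and 20.9).

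Among the other JUN genes, JUND had the most ETS1, and JUN had none. JUND, a JUN protein made in most resting cells, had 8 ETS1 and 8 RUNX1 regions (8 and 8 ETS1 peaks, 9 and 9 RUNX1 peaks), and 0.989% of all genes had as many ETS1 regions, against 4.26% of those on its chromosome and 0.841% of genes with a like number of ends. Its start site had ETS1 folds of 11.87 and 11.96 and RUNX1 folds of 23.9 and 26.4, with the ETS1 summits 173 bp and the RUNX1 summits 168 bp before it. The JUND promoter printed above has no GGAA on either strand but holds a CRE (TGACGTCA, in 1.84% of promoters), whose centre lay 23.5 bp from the ETS1 summits. A RUNX1 region with its summit 8.88 kb from JUND (chr19:18289748-18295032) reached folds of 57.4 and 63.0, and the ETS1 regions inside it had folds of 5.46 and 6.81 and of 4.54 and 4.14.

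JUN, the main partner of FOS in the classical dimer, had 0 and 0 ETS1 peaks, and its nearest ETS1 region lay 3652 kb away. RUNX1 was present with 4 regions (5 and 4 peaks). At the JUN start site its folds were 5.49 and 4.86, the lowest RUNX1 folds at the end of any of the 8 genes that had a region there. The stacks at that summit were nevertheless 152 and 128, above the 128 and 111 at the JUNB start, and the IgG expectation was 26.9 and 25.6, against 8.27 and 7.86 at JUNB. The JUN promoter holds no CGGAAG and 2 matches of TGNGGT.

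Of the FOS genes, all 4 had ETS1 and RUNX1 within 1 kb of an end. FOS, the prototype immediate-early gene, had 1 ETS1 region, at its start, with folds of 8.73 and 8.28, and 9 RUNX1 regions, with 19.4 and 19.1 at the start. The summits did not coincide: ETS1 lay 264 and 263 bp before the start and RUNX1 110 bp before it in both libraries. Upstream of FOS, at 31.5 kb and 29.2 kb, RUNX1 reached folds of 28.7 and 25.3 and of 27.5 and 24.9 without ETS1.

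FOSL2, a FOS protein that lacks a strong activation domain, had 2 ETS1 and 12 RUNX1 regions. At its start, ETS1 had folds of 14.5 and 14.3, above 95.8% of all ETS1 regions by mean fold, and RUNX1 22.7 and 22.1, again with summits about 100 bp apart (268 and 269 bp before the start for ETS1, 168 and 166 bp for RUNX1). The strongest RUNX1 region near FOSL2, chr2:28358156-28361758, had folds of 40.6 and 43.2, and inside it ETS1 had a peak in library 1 alone (3.24).

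FOSB had 5 ETS1 regions (8 and 6 peaks) and 11 RUNX1 regions (14 and 12 peaks). At its start, ETS1 folds of 11.4 and 13.3 lay next to RUNX1 folds of 14.6 and 10.6, so the ranges of both factors overlapped. Its strongest RUNX1 region, near VASP, had folds of 40.0 and 37.3, with ETS1 folds of 12.6 and 13.3. FOSL1 had 5 ETS1 regions (6 and 7 peaks) and 14 RUNX1 regions (18 and 17 peaks) in a window with 20 gene ends. As many ETS1 regions were found at 4.81% of all genes, 8.79% of those on its chromosome and 40% of genes with a like number of ends. ETS1 was weak at its lower-coordinate end (4.57 and 5.65), and RUNX1 was strongest at the other end (13.8 and 11.3), where ETS1 had a peak in library 2 alone (6.70). A RUNX1 region with its summit 27.6 kb from FOSL1, without ETS1, had folds of 55.5 and 60.4. The RUNX1 region at CFL1 in this window had folds of 13.7 and 24.3 in libraries 1 and 2. Its stacks were close, 117 and 121, and the IgG expectations were 7.58 and 4.02.

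BATF and BATF3, partners of JUN proteins in lymphoid and dendritic cells, had no region of either factor at a gene end. BATF had 0 and 0 ETS1 peaks, and the nearest ETS1 region was the one at the FOS start, 243.5 kb away. RUNX1 had 3 and 3 peaks there, of which the strongest lay within BATF (chr14:75541869-75543427) with folds of 24.99 and 28.66. The BATF promoter printed above holds CGGAAG and TGTGGT, yet neither factor had a region over it. BATF3 had 1 and 2 ETS1 peaks and 4 and 2 RUNX1 peaks. Its single ETS1 region, 49.2 kb away, lay over a RUNX1 region with folds of 24.3 and 22.2. The strongest ETS1 peaks of the region, 3.23 in library 1 and 5.20 in library 2, had different summits. At the library 1 summit, library 2 had a peak with a fold of 3.23. RUNX1 had a peak at an end of BATF3 in library 1 alone (2.65).

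**Figure D3:**
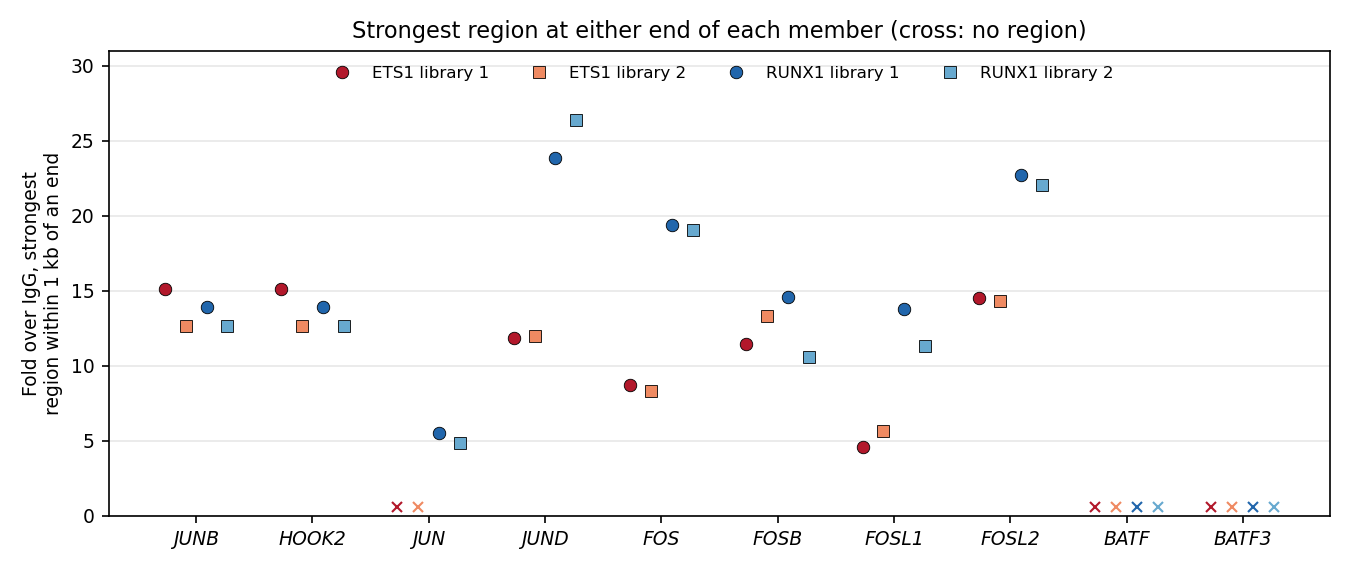
Fold over IgG of the strongest ETS1 and RUNX1 region within 1 kb of either end of each gene, in each library. Crosses mark genes with no region shared by both libraries. JUNB and HOOK2 share the same regions, and RUNX1 is above ETS1 in both libraries at JUND (23.9 and 26.4 against 11.87 and 11.96), FOS, FOSL1 and FOSL2. The strongest regions of both factors can lie at different places. At FOSL1 they lie at opposite ends of the gene. At JUNB and HOOK2 the ETS1 value is from the region reaching beyond the 3′ end of JUNB. Its summits lay 1482 and 1487 bp before the outermost HOOK2 start. A weaker library 2 peak of that region, nearer this start, had a fold of 4.98. At the JUNB start, RUNX1 (13.9 and 12.6) was above ETS1 (9.97 and 9.56) in both libraries.

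Of the 10 genes, 7 had an ETS1 region within 1 kb of an end, against 19.0% of all protein-coding genes, and 8 had a RUNX1 region, against 47.2%. JUNB and HOOK2 count the same regions, and JUNB was chosen for its ETS1 peaks. Of the other 8, 5 had ETS1 and 6 had RUNX1 at an end. In or within 50 kb of the gene, ETS1 was found at 8 of the 10, against 40.6% of all genes, and RUNX1 at all 10, against 75.3%.

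**Figure D4:**
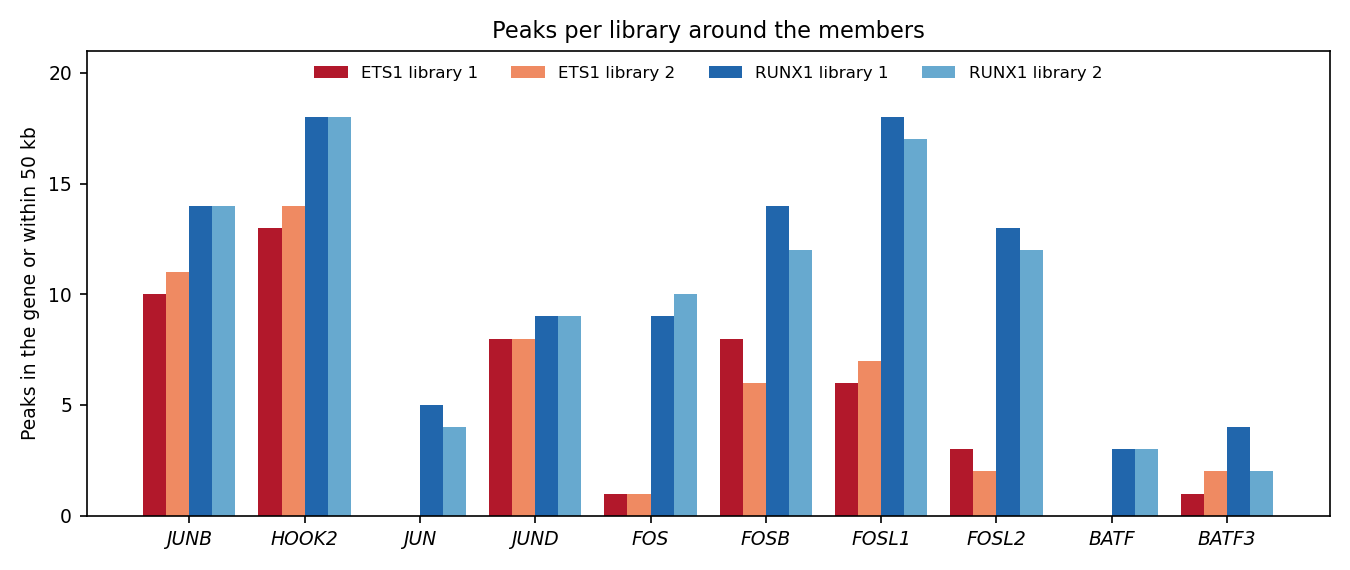
Peaks inside each gene or within 50 kb in each of the 4 libraries. ETS1 counts were 10 and 11 at JUNB, 13 and 14 at HOOK2 and 0 and 0 at JUN and BATF, and RUNX1 counts were at least as high as ETS1 counts at every gene.

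Over the whole lists the ETS1 libraries had 6082 and 5625 peaks and the RUNX1 libraries 25360 and 25001, so the groups did not overlap. Nor did they over the windows of the other 8 genes, with 27 and 26 ETS1 peaks and 75 and 69 RUNX1 peaks. The mean difference, ETS1 minus RUNX1, was -45.5 peaks (exact permutation test of the 4 library labels, two-sided, p = 0.333, the smallest p that 2 against 2 libraries allow). The difference turned to 5 more peaks per library for ETS1 when each library was cut to its 5611 strongest peaks, so its direction depended on the number of peaks taken. The windows held 22 ETS1 regions, all over RUNX1, with a median fold of 6.18, and 63 RUNX1 regions, of which 19 lay over ETS1, with a median fold of 10.8.

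ETS1 and RUNX1 regions with summits within 100 bp of each other were paired, to set the values of both factors side by side. The antibodies differ and the depth of the libraries is unknown. The ratios therefore do not measure which factor occupied a place more. There were 7 such pairs in the JUNB and HOOK2 window, 10 in the windows of the other 8 genes and 3294 in the genome. The ETS1 fold was above the RUNX1 fold in both replicates in 2 of the 7, in 0 of the 10 and in 5.46% of all pairs. The median ratio of the ETS1 stack to the RUNX1 stack was 0.623 in the JUNB and HOOK2 window, 0.355 at the other 8 and 0.362 over all pairs. The median ratio of folds was 0.736, 0.370 and 0.428. Since the window was chosen for ETS1 peaks, these ratios describe it and were not tested.

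**Figure D5:**
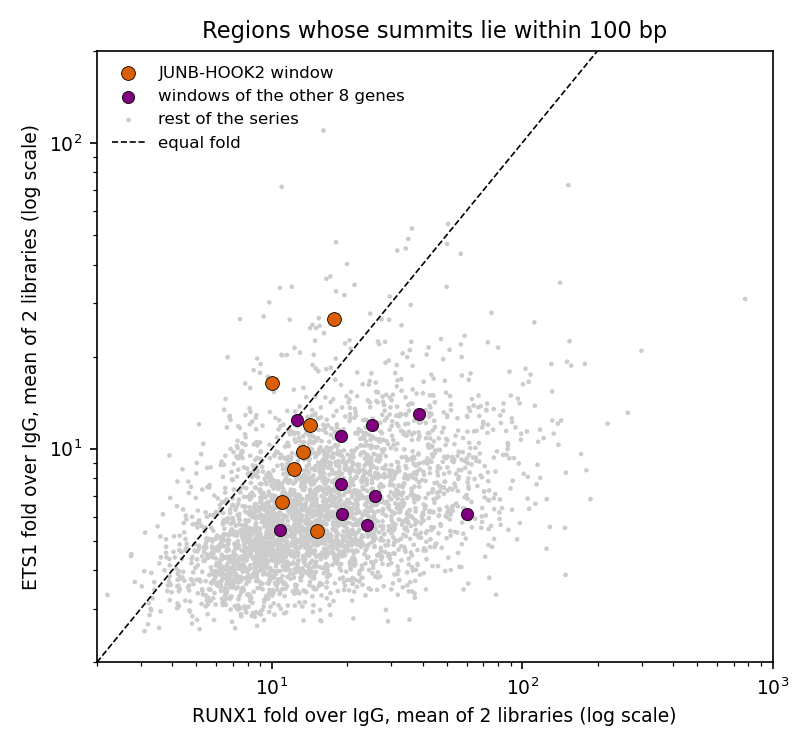
ETS1 fold against RUNX1 fold over IgG (means of 2 libraries, log scales) at regions with summits within 100 bp. Orange points are the 7 pairs around JUNB and HOOK2, purple points the 10 pairs around the other 8 genes and grey points the rest of the 3294 pairs. Points above the dashed line, where both folds are equal, include the PRDX2 and GET3 promoters.

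Other genes of the AP-1 pathway were counted from lists, for both factors at gene ends. Of 15 further leucine zipper partners, 5 had ETS1 and 12 had RUNX1, led in ETS1 fold by ATF7, an ATF-type partner of JUN proteins (6.57 and 7.18, with RUNX1 at 9.18 and 10.9). Of 19 kinases and serum response factors upstream of AP-1, 8 had ETS1 and 15 had RUNX1. MAP2K2, the kinase that activates ERK, had ETS1 folds of 8.05 and 7.53 and RUNX1 folds of 50.2 and 48.2, and MAPK3, which encodes ERK1, had ETS1 folds of 7.98 and 7.36 and RUNX1 folds of 14.02 and 12.98. Of 10 genes of feedback and turnover, 3 had ETS1 and 8 had RUNX1. These were DUSP2 and DUSP6, phosphatases of MAP kinases, and FBXW7, a ubiquitin ligase subunit that targets JUN, with ETS1 folds between 3.84 and 5.24.

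Of 17 other immediate-early genes, 6 had ETS1 and 15 had RUNX1. ZFP36, which promotes decay of AU-rich messenger RNAs, had ETS1 folds of 9.76 and 10.2 and RUNX1 folds of 17.3 and 16.8, and IER2 had ETS1 folds of 8.74 and 10.1 and RUNX1 folds of 48.1 and 49.4. Of 10 cytokine and surface genes that AP-1 activates in stimulated T cells, 1 had ETS1 and 3 had RUNX1. TNF was the gene with both (ETS1 7.23 and 7.12, RUNX1 47.2 and 50.04), and IL2 had neither at an end. Among 9 AP-1 genes without HOOK2, the median ETS1 fold of the 6 with a region at an end was 12.1, against 5.92 over all genes with one. For RUNX1 the median of 7 was 13.3, against 8.62. The 6 with ETS1 include JUNB (mean ETS1 fold 13.9), which was chosen for its ETS1 peaks. The others had mean ETS1 folds of 11.9 (JUND), 8.51 (FOS), 12.4 (FOSB), 5.11 (FOSL1) and 14.4 (FOSL2). The percentages of all genes for these counts are the 19.0% and 47.2% given above, and 18.7% had both factors.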

How the data were processed

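The tools were bcl2fastq 2.17, MACS3 3.0.0a6 and Bowtie2, on hg38, per the submitters' processing notes, which name no Bowtie2 version. Per the labels, the authors called peaks in each library against IgG. No source used here gives the call threshold or read filters. The lowest −log10 q in the deposited lists was 5.00 to 5.03. For each peak the deposited lists give the fold over IgG (a ratio), −log10 p, −log10 q, a score that follows −log10 q and was not used, and the summit. Fold values are the authors' own and were used to describe and rank peaks.

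Total depth is unknown. The stack at each summit and the IgG expectation were solved from the deposited fold and −log10 p (pseudocount of 1, Poisson tail). All 4 lists could be solved for 100% of peaks within 0.01 of −log10 p, or 5e-05 of its value where that is larger. In simulated data, 100% of 5000 planted stacks were recovered, 722 of them at folds under 4.

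Chromosomes 1 to 22 and X entered the counts (Python 3.11.15, pandas 2.3.3, scipy 1.17.1). Where a library had several peaks in a region, the strongest gave the fold, and overlap means at least 1 bp. Gene bounds, promoters and start sites came from RefSeq tables of GRCh38.p14, and 153 genes given in scaffold coordinates were left out. A gene end counted as occupied when a region touched the 1 kb on either side of it. Motifs were searched on both strands. CGGAAG was added after the sequences were seen.

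The 10 genes and all lists were chosen with earlier results of these data known. Named were the 10 genes, the coding genes around JUNB and HOOK2 with a region at an end, and, per list, at most 4 genes with both factors and the highest ETS1 fold and 1 with neither. Alternatives were a −log10 q of at least 20, windows of 25 and 100 kb, end distances of 500 bp and 5 kb, regions with a peak in either library, merging over 500 bp, reciprocal overlap of 50%, equal numbers of peaks, each library left out and a replicate block.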

Additional observations from a re-analysis of the deposited data

How the results depend on the processing

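The exact test over libraries could not go below p = 0.333, and the depth of the libraries is unknown. With the replicate number as a block, the difference over the other 8 genes was again -45.5 peaks (exact permutation p = 0.5), and nothing in the labels pairs ETS1 and RUNX1 libraries by number. With equal numbers of strongest peaks per library, that difference turned to 5, RUNX1 regions fell to 1 around JUNB and HOOK2 and to 19 at the other 8, the genes with RUNX1 at an end to 3 of 10, the gene ends with RUNX1 around JUNB and HOOK2 to 10%, and the ETS1 regions there that overlap RUNX1 to 7.69%. The shares of all genes and of all gene ends given above hold for the full peak lists. They are no comparison for these counts. The share of genes with as many RUNX1 regions as JUNB was then 40.6%. The cause was not tested beyond the construction, which keeps fewer RUNX1 peaks.

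A −log10 q of at least 20 left 10 ETS1 regions at the other 8 genes, and 9.05% of genes then had as many RUNX1 regions as JUNB. With 25 kb windows, RUNX1 had 8 regions around JUNB and HOOK2 and 40 at the other 8. As many ETS1 regions as JUNB were then held by 0.0404% of genes and as many RUNX1 regions by 6.61%. With 100 kb the shares were 0.298% and 4.7%, with a peak in either library 0.762% and 2.58%, and with merging over 500 bp 1.5% and 4%. A distance of 5 kb gave RUNX1 at 80% of the gene ends around JUNB and HOOK2. A reciprocal overlap of 50% left 46.2% of the ETS1 regions there over RUNX1. No share over the genome is given for either of these settings. Leaving out a replicate gave shares of 0.328% to 0.641% for ETS1 and 3.3% to 3.46% for RUNX1. The densest stretch of 8 ETS1 regions held 5 with merging over 500 bp or with a stretch of 10 kb, 6 at a −log10 q of at least 20 (reached from 2 starts), and 8 to 9 with either replicate left out (alternatives chosen after the data were seen).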

Other observations

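Over all 34789 RefSeq promoters of the table, ETS1 regions lay over 13.1% and RUNX1 regions over 33.1%. Promoters with CGGAAG had ETS1 in 27.3% and those without it in 9.68%, and RUNX1 in 59.8% and 26.6%. Promoters with the CRE carried by JUND had ETS1 in 24.2%, against 12.9% without it, and RUNX1 in 55.7%, against 32.6%. The AP-1 site TGANTCA, present in the FOSL2 promoter as TGACTCA, went with lower shares, 5.31% against 13.7% for ETS1 and 16.2% against 34.5% for RUNX1. TGTGGT also went with lower shares, 9.01% against 13.7% for ETS1. GGAA, found in 95.4% of promoters, made little difference for ETS1 (13.1% with it, 12.6% without). These are descriptions of 300-base windows, whose base composition differs, and no test was made.

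In the windows of the 10 genes, 8 ETS1 peaks were called in a single library, with folds of 3.14 to 6.87, against library medians of 5.48 and 5.65 over all peaks. There were 20 such RUNX1 peaks, with folds of 2.65 to 9.42, against medians of 7.58 and 7.70.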
